A study of Homo sapiens with 4 samples.

Results

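Iron enters cells, is stored and leaves through a small set of proteins, and 10 genes of this set were examined after knockdown of ANP32B in MV4-11 cells. The genes were taken by symbol from a list, which was drawn up with earlier results of these data known. They were TFRC and SLC11A2 (uptake), SLC11A1 (transport out of phagosomes), FTL, FTH1 and NCOA4 (storage), SLC40A1 and HMOX1 (export and release from haem), and IREB2 and ACO1 (sensing). Of these 10 genes, 9 were found among the 18885 genes listed with expression values, and SLC11A1 was not analysed here. MV4-11 is a human acute myeloid leukaemia (AML) cell line. Its RNA was sequenced in 4 libraries, 2 of a control group (NC) and 2 of a group in which ANP32B, a histone chaperone of the acidic nuclear phosphoprotein family, was knocked down with a short hairpin RNA (sh-ANP32B). The comparison asks which transcripts changed when ANP32B was lost.

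The labels gave the NC cells no hairpin and no treatment, whereas the study's text calls its control sh-NC. Hairpins were delivered by lentivirus, and stable cells were selected with puromycin. If the NC cells carried no hairpin, effects of transduction and selection cannot be told apart from those of ANP32B loss. The knockdown columns carried the mark S3, and the study lists a hairpin of that number among those it used, so the group may stand for a single hairpin. The study states for its experiments in general that they were repeated independently, but not whether the libraries of a group came from separate cultures. The p-values therefore rest on the spread between these libraries, shared among genes by the fit, and this spread may be technical.

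Cells take up transferrin-bound iron through the transferrin receptor (TFRC) and move it out of endosomes through the divalent metal transporter (SLC11A2). Iron not in use is held in ferritin, a shell of light (FTL) and heavy (FTH1) chains, and surplus iron leaves through ferroportin (SLC40A1), the known cellular iron exporter. Iron regulatory proteins, encoded by ACO1 and IREB2, bind a stem-loop in messenger RNA called the iron-responsive element when iron is scarce. Bound in the leader of a transcript, as in ferritin, they block translation, and bound in the tail of the TFRC transcript they protect it from decay. Transcript levels therefore do not show how much ferritin or ferroportin protein was made.

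The stem-loops are shown because they mark, for the members with a match, whether it lies in the leader or in the tail. The search covered the untranslated regions (UTRs) of the canonical transcript of each coding gene (GENCODE version 44 on hg38). Other transcript ends were not examined. On the sense strand, the pattern was a bulged C, 5 bases, a loop CAGTGN, and 5 bases able to pair with the first 5. G-T pairs were allowed. The capitals mark the loop, and each sequence is written 5′ to 3′ on the strand of the gene. The first 3 lie in exon 1, in the 5′ UTR, and the 4 of TFRC lie in exon 19 of 19, in the 3′ UTR.
FTH1, chr11:61967574-61967602, minus strand: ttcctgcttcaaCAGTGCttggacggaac
FTL, chr19:48965335-48965363, plus strand: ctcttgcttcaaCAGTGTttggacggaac
SLC40A1, chr2:189580661-189580689, minus strand: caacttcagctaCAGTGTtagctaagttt
TFRC, chr3:196050979-196051007, minus strand: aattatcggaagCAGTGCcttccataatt
TFRC, chr3:196050575-196050603, minus strand: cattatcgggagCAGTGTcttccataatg
TFRC, chr3:196050510-196050538, minus strand: ctgtatcggagaCAGTGAtctccatatgt
TFRC, chr3:196050463-196050491, minus strand: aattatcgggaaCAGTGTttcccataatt

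The loop began at base 45 of the 209-base 5′ UTR in FTH1, at base 39 of 199 in FTL and at base 110 of 326 in SLC40A1. In TFRC the loops began at bases 950, 1354, 1419 and 1466 of a 3′ UTR of 2661 bases. The last 3 of these matches therefore lay close together, with the first farther upstream. Such a match was rare, being present in the 5′ UTR of 12 of 11366 tested coding genes (0.106%) and in the 3′ UTR of 89 (0.783%). A match describes letters and pairing only, and an element with another loop or stem would be missed. The absence of a match, in the other members or elsewhere in TFRC, therefore says nothing about binding there.

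**Figure D1:**
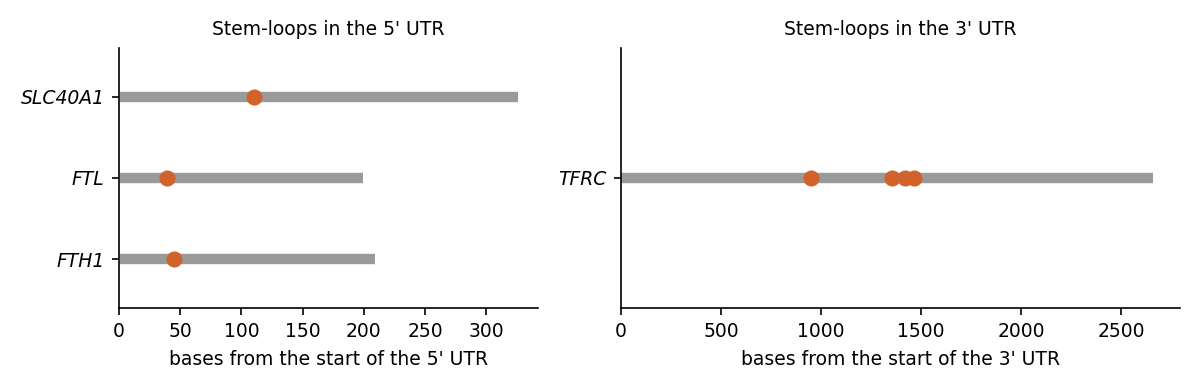
Position of the stem-loop matches in the untranslated regions of 4 iron genes. Grey bars are the length of the 5′ UTR (left) or 3′ UTR (right) in bases and points are the start of each loop, with 1 point in SLC40A1, FTL and FTH1 and 4 in TFRC.

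The targeted gene was examined first. ANP32B stood at 358.2 and 363.8 TPM, a level per transcript length scaled to a common total, in the NC libraries and at 54.1 and 49.3 TPM in the sh-ANP32B libraries. The groups did not overlap, and the knockdown mean was 0.143 times the NC mean (log2 fold change -2.78, SE 0.0558, limma adjusted p = 2.89e-05). The libraries summed to between 997271 and 998546 TPM. The scaling sets these sums, so they do not show that values are comparable between libraries. Mitochondrial genes held 15.9% and 15.4% of TPM in NC and 17.6% and 17.4% in sh-ANP32B. TPM keep no read numbers, and the depth is unknown. The 9 marker genes of the MV4-11 line were all listed. By the rule for calls given below, 5 of these rose (PTPRC, SPI1, CD4, ITGAM and CSF2RA) and 1, MEIS1, fell, while CD33, FLT3 and HOXA9 were not called. Over all genes tested, 17.9% were called higher and 10.1% lower, and each marker count here stands beside these shares. Of 13 markers of monocytes and macrophages 8 were listed and 7 of these rose, CSF1R being the exception. Their summed level went from 533.4 and 528.5 TPM in NC to 5683 and 5624 TPM in sh-ANP32B, most of it LYZ. The defining marker CD14 was not analysed here. C1QA, among the 7, stood at 0.0864 and 0 TPM in NC and at 1.44 and 1.66 TPM in sh-ANP32B. It entered the test only through the knockdown libraries, so it could not have been called lower. MARCO, also among the 7, reached 1 TPM in only 1 NC library (1.12 and 0.998 TPM, against 2.86 and 2.35 TPM in sh-ANP32B). Among 12 erythroid markers only KLF1 and EPOR were listed, at a summed 10.2 and 8.64 TPM in NC and 9.99 and 9.24 TPM in sh-ANP32B, and neither was called. Of 6 lymphoid markers 3 were listed, with 1 called higher and 1 called lower. Their summed level was 8.16 and 8.47 TPM in NC and 5.61 and 7.85 TPM in sh-ANP32B. The lymphoid gene called higher, CD2, stood at 0.521 and 0.442 TPM in NC and at 3.62 and 3.63 TPM in sh-ANP32B. It too entered the test only through the knockdown libraries. In bulk RNA, a change in the share of cells of a kind and a change in RNA per cell cannot be told apart, and the part of the monocyte markers in the results that follow was not tested.

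A gene was called when its limma adjusted p was below 0.05 and its log2 fold change, on log2(TPM + 1), went beyond 0.5. By this rule 6 of the 9 iron genes rose in sh-ANP32B (FTL, FTH1, SLC11A2, SLC40A1, HMOX1 and NCOA4) and 0 fell, while TFRC, ACO1 and IREB2 were not called. Over all 16937 genes tested, 17.9% were called higher and 10.1% lower. Without the fold limit 7 of the 9 were higher, TFRC being the addition, against 26.0% of all genes higher and 19.7% lower. The NC and sh-ANP32B libraries did not overlap for 8 of the 9 genes, but this was so for 74.7% of all genes tested. The median log2 fold change of the 9 genes was 0.725, against 0.079 over all genes. Less that median, the log2 fold changes ran from 0.003 (IREB2) to 1.35 (HMOX1). The balance of calls over all genes moved with the scaling, since 36.2% of calls were lower here, 47.1% under median-of-ratios scaling and 50.3% under quantile normalization. The 6 called genes were the same 6 in all 11 refits with another scaling, filter, pseudocount or block, or with a library left out.

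**Figure D2:**
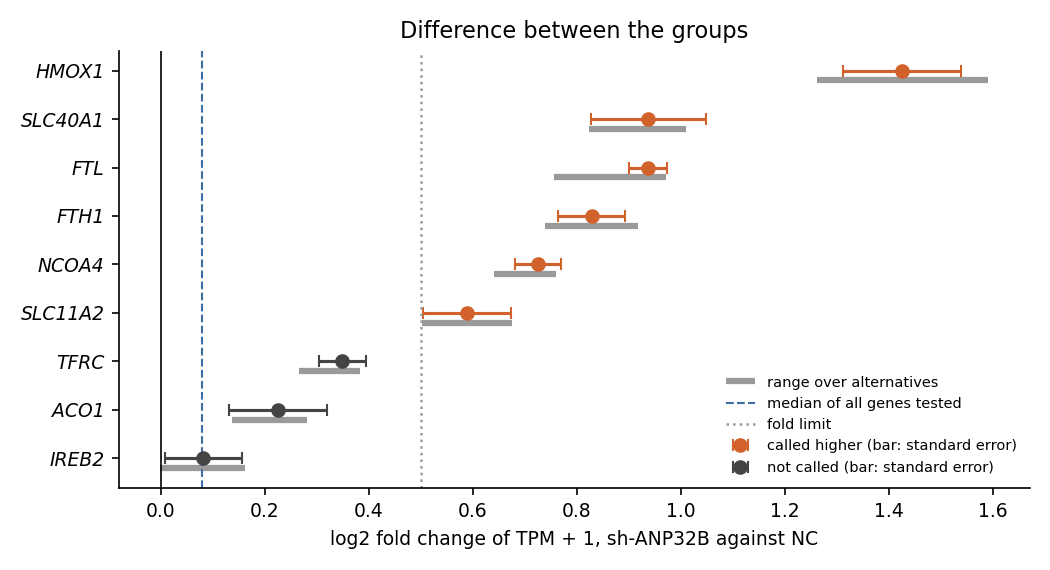
Log2 fold change of TPM + 1 for the 9 iron genes, sh-ANP32B against NC. Points are the estimates with the standard error as a bar, grey bars are the range over the alternative fits, the dashed line is the median of all genes tested (0.079) and the dotted line the fold limit (0.5). HMOX1 lay highest at 1.43 and IREB2 lowest at 0.08.

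Ferritin gave the highest levels. The light chain FTL (chr19:48965309-48966879, plus strand) stood at 4917 and 4775 TPM in NC and at 9292 and 9259 TPM in sh-ANP32B. Both knockdown libraries lay far above both control libraries, with little spread inside either group. Means were 4846 ± 100.3 TPM and 9276 ± 23.0 TPM (SD, n = 2 libraries), or 1.91 times the NC mean (log2 fold change 0.94, SE 0.0367, limma adjusted p = 9.69e-05). FTL was already among the most abundant transcripts of the control cells, with 12 genes above it in each NC library, and only 6 genes stood above it in each sh-ANP32B library.

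The heavy chain FTH1, which carries the ferroxidase activity of ferritin (chr11:61959718-61967634, minus strand), stood at 612.5 and 540.9 TPM in NC and at 1006 and 1040 TPM in sh-ANP32B. These groups also stood apart. The knockdown mean of 1023 ± 24.3 TPM was 1.77 times the NC mean of 576.7 ± 50.6 TPM (log2 fold change 0.83, SE 0.064, limma adjusted p = 0.000424). Both chains together took 0.554% and 0.532% of all TPM in NC and 1.03% and 1.03% in sh-ANP32B.

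FTH1 and FTL have many processed copies in the genome, to which reads of the parent can be assigned. Of 25 annotated FTH1 pseudogenes 6 were listed, and their summed level was 0.722% and 0.853% of FTH1 in NC and 0.678% and 0.874% in sh-ANP32B. Of 16 annotated FTL pseudogenes only FTLP3 was listed, at 9.34 and 5.41 TPM in NC and 15.6 and 14.4 TPM in sh-ANP32B. Thus the copies that were listed held under 1% of the parent in every library. FTLP3 (log2 fold change 0.97, limma adjusted p = 0.02) and FTH1P2 (log2 fold change 0.98, limma adjusted p = 0.0245) were called higher, but reads of these copies and of the parents could be exchanged. FTH1P2 stood at 0.747 and 1.19 TPM in NC and at 2.33 and 3.48 TPM in sh-ANP32B. It met the filter of 1 TPM in 2 libraries only with the knockdown libraries.

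FTH1 shares 1267 bases of its exons with BEST1 on the opposite strand, a gene for a chloride channel. BEST1 stood at 1.28 and 7.07 TPM in NC and at 16.1 and 17.5 TPM in sh-ANP32B, and it was called higher (log2 fold change 2.05, SE 0.561, limma adjusted p = 0.0305). How strand was handled is not given in the sources used here, so that reads of BEST1 and FTH1 may not be separable. BEST1 was far below FTH1 in every library.

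NCOA4, the receptor that carries ferritin to autophagic breakdown (chr10:46005088-46030623, minus strand), stood at 87.3 and 84.5 TPM in NC and at 140.9 and 144.4 TPM in sh-ANP32B. Again every knockdown library was above every control library. The mean went from 85.9 ± 1.97 to 142.7 ± 2.44 TPM, 1.66 times as much (log2 fold change 0.73, SE 0.0443, limma adjusted p = 0.000233). The genes for the ferritin shell and for its turnover receptor were thus all called higher.

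Among the uptake genes, TFRC (chr3:196012511-196082153, minus strand) stood at 82.0 and 84.7 TPM in NC and at 107.3 and 105.7 TPM in sh-ANP32B. The groups did not overlap, but the difference was small. The means were 83.4 ± 1.93 and 106.5 ± 1.15 TPM, 1.28 times as much (log2 fold change 0.35, SE 0.0452, limma adjusted p = 0.0023), which passed the adjusted p and not the fold limit. Exons of TFRC share 191 bases with an antisense RNA gene that was not analysed here. SLC11A2 (chr12:50979401-51028566, minus strand) stood at 27.9 and 25.9 TPM in NC and at 38.5 and 43.6 TPM in sh-ANP32B. It rose to 1.53 times the NC mean, from 26.9 ± 1.40 to 41.0 ± 3.59 TPM (log2 fold change 0.59, SE 0.0853, limma adjusted p = 0.00345), with no overlap between the groups. This was the smallest change among the called iron genes, and its log2 fold change was 0.502, just past the fold limit, without sh-ANP32B replicate 2.

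Ferroportin, SLC40A1 (chr2:189560590-189583758, minus strand), was expressed at a low level, 8.63 and 7.79 TPM in NC and 15.8 and 17.5 TPM in sh-ANP32B. Neither knockdown library overlapped the controls, and the mean rose from 8.21 ± 0.591 to 16.6 ± 1.15 TPM, 2.03 times as much (log2 fold change 0.94, SE 0.111, limma adjusted p = 0.0017). On the log2 scale this change lay close to that of FTL, although SLC40A1 was far rarer than FTL in every library.

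HMOX1, haem oxygenase, which frees iron by breaking down haem (chr22:35380361-35394214, plus strand), stood at 4.52 and 4.51 TPM in NC and at 13.7 and 14.0 TPM in sh-ANP32B. It had the lowest level of the 9 genes in NC and the largest fold change among them. The mean rose from 4.52 ± 0.0044 to 13.8 ± 0.179 TPM, 3.06 times as much (log2 fold change 1.43, SE 0.114, limma adjusted p = 0.000469). Of all genes tested, 2.50% had a higher log2 fold change than HMOX1. For comparison, 8.11% of genes stood above SLC40A1 and 8.12% above FTL.

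**Figure D3:**
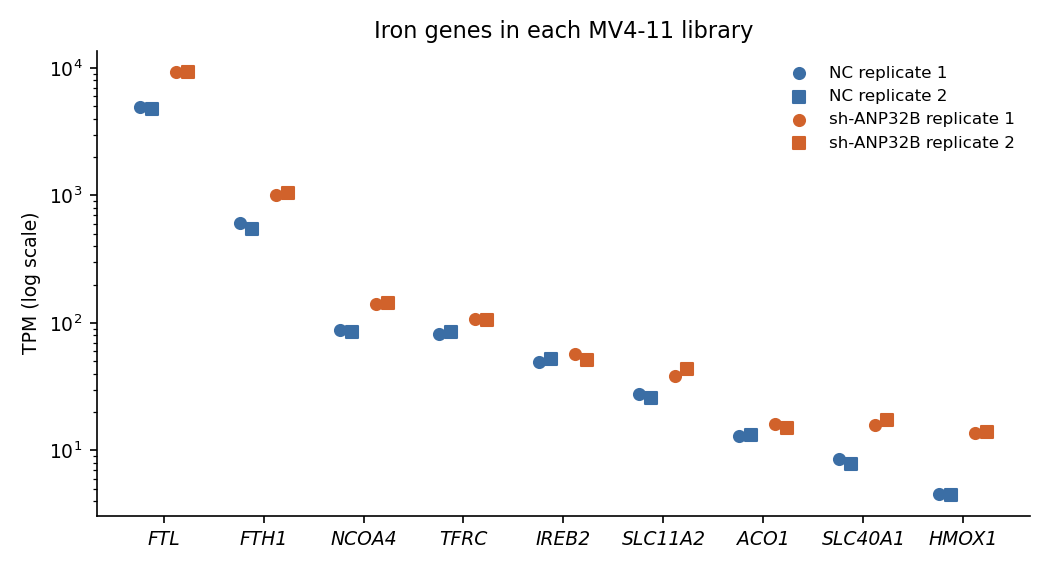
TPM of the 9 iron genes in each of the 4 libraries, on a log axis. Circles and squares are replicates 1 and 2, blue is NC and orange sh-ANP32B. FTL lay highest, from 4775 to 9292 TPM, HMOX1 lowest in NC, at 4.52 and 4.51 TPM, and the groups overlapped only for IREB2.

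Neither gene of the iron regulatory proteins was called. IREB2 (chr15:78437431-78501453, plus strand) stood at 49.7 and 52.4 TPM in NC and at 57.2 and 51.1 TPM in sh-ANP32B. Its groups overlapped, and means of 51.0 ± 1.91 and 54.1 ± 4.37 TPM did not pass the test (log2 fold change 0.08, SE 0.0737, limma adjusted p = 0.405). This value changed sign under median-of-ratios scaling, where it lay next to 0. ACO1 (chr9:32384603-32454769, plus strand) encodes the regulator that is also the cytosolic aconitase. It stood at 13.0 and 13.3 TPM in NC and at 16.2 and 14.9 TPM in sh-ANP32B, without overlap. The means of 13.1 ± 0.175 and 15.5 ± 0.911 TPM did not pass the test either (log2 fold change 0.23, limma adjusted p = 0.103). A p that misses the threshold does not show that these genes were equal in both groups.

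Ratios within a library do not change when a library is multiplied by a common factor, but they do under quantile normalization. TFRC relative to FTH1 was 0.134 and 0.157 in NC and 0.107 and 0.102 in sh-ANP32B. Every knockdown library was lower, with a mean 0.717 times that of NC (two-sided exact permutation p = 0.333, the smallest that 2 against 2 libraries allow). The ratio of FTH1 to FTL was 0.125 and 0.113 in NC and 0.108 and 0.112 in sh-ANP32B, and the groups nearly met (exact permutation p = 0.333). Its direction turned under quantile normalization, where the log2 fold change was 0.92 for FTH1 and 0.76 for FTL. The IREB2 to ACO1 ratio was 3.82 and 3.95 in NC and 3.54 and 3.43 in sh-ANP32B, a mean 0.897 times that of NC (exact permutation p = 0.333). Ferritin relative to ferroportin, the sum of FTH1 and FTL over SLC40A1, was 640.7 and 682.0 in NC and 650.2 and 590.0 in sh-ANP32B, with overlapping groups (exact permutation p = 0.667). None of these 4 tests could pass 0.05 at this number of libraries.

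**Figure D4:**
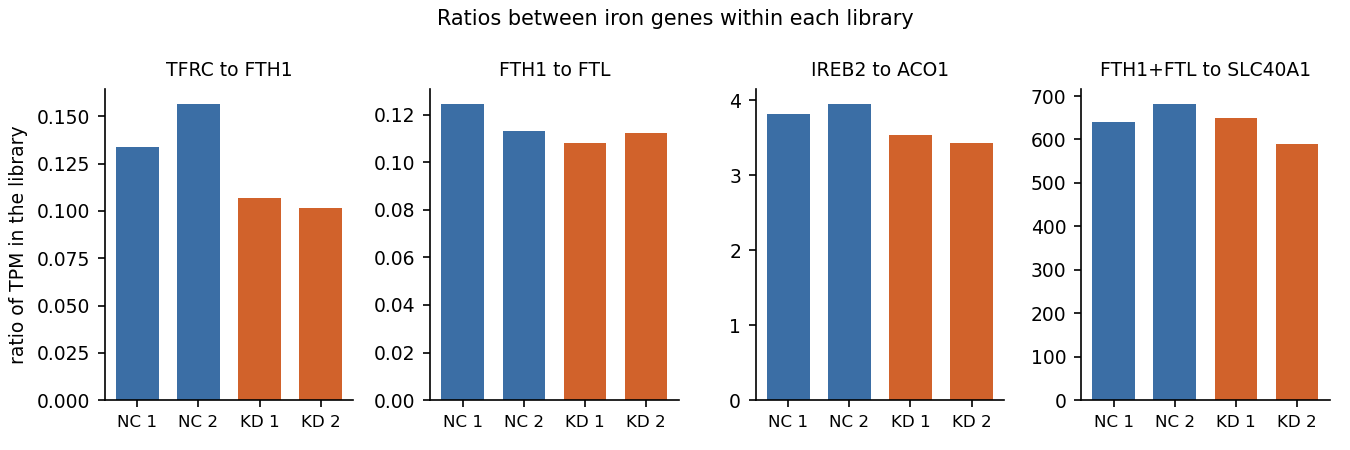
Ratios of TPM between iron genes within each library, 1 bar per library from 0 (blue NC replicates 1 and 2, orange sh-ANP32B replicates 1 and 2, marked KD). The TFRC to FTH1 bars are 0.134 and 0.157 in NC and 0.107 and 0.102 in sh-ANP32B, and the bars of ferritin to ferroportin overlap between the groups.

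The genes with a stem-loop were then set beside each other by its position. Of the 12 genes with one in the 5′ UTR, 6 were called higher and 0 lower, and their median log2 fold change was 0.704, beside 17.9% higher, 10.1% lower and a median of 0.079 over all genes tested. FTL, FTH1 and SLC40A1 are 3 of these 6 and the others were CHRNA10 (0.80, limma adjusted p = 0.0356), ENC1 (1.05, limma adjusted p = 0.00206) and ZER1 (0.66, limma adjusted p = 0.00221). CHRNA10 stood at 0.862 and 1.15 TPM in NC and at 2.92 and 2.08 TPM in sh-ANP32B. F10, which was not called, stood at 0.934 and 1.21 TPM in NC and at 3.06 and 1.96 TPM in sh-ANP32B. Both met the filter of 1 TPM in 2 libraries only with the knockdown libraries, where they were higher. The 12 genes and their median include both. The 89 genes with a match in the 3′ UTR, TFRC among them, held 12 called higher and 10 called lower, with a median of 0.061, shares near those of all genes. Whether the genes outside iron metabolism bind iron regulatory proteins is not shown by these letters.

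A further 8 lists, with 119 iron-related genes, were written from general knowledge. Of these genes 97 were tested, 12 were called higher (12.4%) and 6 lower (6.19%), shares below the 17.9% and 10.1% of all genes, and the median log2 fold change was 0.026. The counts of each list below are small and stand beside the same shares of all genes.

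Among 11 tested genes of other transport steps, 3 rose and 1 fell. CYBRD1, a ferric reductase, went from 29.4 and 29.2 TPM in NC to 56.0 and 53.7 TPM (log2 fold change 0.88, limma adjusted p = 0.000284). MCOLN1, a lysosomal cation channel (0.77, limma adjusted p = 0.00402), and TF, transferrin itself (0.65, limma adjusted p = 0.0164), also rose. PCBP2, a cytosolic iron chaperone that loads ferritin, fell from 673.2 and 660.8 TPM to 470.2 and 468.3 TPM (log2 fold change -0.51, limma adjusted p = 0.000278). Its partner PCBP1 had a log2 fold change of -0.16 (limma adjusted p = 0.0151), TFR2 of -0.31 (limma adjusted p = 0.098) and STEAP3 of -0.16 (limma adjusted p = 0.19), and none of these was called. HFE was not analysed here.

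In the list of iron regulatory protein turnover and ferritin breakdown, 1 of 12 genes rose, the autophagy protein ATG9A (45.1 and 49.8 TPM in NC, 83.8 and 84.0 TPM in sh-ANP32B, log2 fold change 0.81, limma adjusted p = 0.000441). FBXL5, the iron-sensing ligase subunit that removes IREB2 protein, stayed inside the fold limit (log2 fold change 0.34, limma adjusted p = 0.0386). Of 15 tested haem genes, the transporter FLVCR2 (0.76, limma adjusted p = 0.01) and the synthesis enzyme PPOX (0.52, limma adjusted p = 0.00818) rose. In all, 2 of the haem genes were called higher and 1 lower.

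Of 25 mitochondrial iron-sulphur genes 21 were not called, beside 17.9% of all genes called higher and 10.1% lower. The 2 called higher were ABCB6 (log2 fold change 0.89, limma adjusted p = 0.0211) and TMEM14C (0.56, limma adjusted p = 0.000778), and 2 were lower. The lower pair were the assembly factor BOLA3 (-1.02, limma adjusted p = 0.000735) and the chaperone HSPA9 (-0.55, limma adjusted p = 0.000309). All 10 cytosolic iron-sulphur genes lay between -0.434 and 0.009 and 0 were called. NRF2 and BACH1 are the activator and the repressor known for HMOX1, and neither transcript was called. NFE2L2, which encodes NRF2, stood at 80.7 and 82.9 TPM in NC and 85.6 and 87.1 TPM in sh-ANP32B, and BACH1 at 28.5 and 31.1 and at 31.2 and 33.0 TPM. Of 14 genes linked to both regulators 2 rose and 0 fell, and SLC7A11, the cystine transporter, was among those that rose (0.51, limma adjusted p = 0.0252).

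Of 7 tested ferroptosis genes, SAT1 rose from 58.0 and 57.0 TPM to 160.9 and 165.2 TPM (log2 fold change 1.49, limma adjusted p = 6.16e-05). SLC3A2 (-0.59, limma adjusted p = 0.000469) and GCH1 (-1.06, limma adjusted p = 0.0176) fell. EPAS1, a hypoxia factor with a known iron-responsive element, rose from 4.87 and 3.95 to 13.2 and 11.4 TPM (log2 fold change 1.30, limma adjusted p = 0.00162). MYC, a known regulator of TFRC and of ferritin heavy chain, fell from 376.4 and 369.9 TPM to 239.9 and 236.3 TPM (log2 fold change -0.65, limma adjusted p = 0.000191).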

How the data were processed

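RNA of 4 MV4-11 libraries was sequenced, and the groups were taken from the sample titles. Reads were aligned to hg38 with HISAT2 (2.0.5, per the submitters' processing notes). The authors deposited 1 table of values per gene and library, read here as TPM because the totals of the libraries are almost equal. The quantification tool, annotation and strand setting are not given in the sources used here. Listed genes have a mean of at least 0.500 TPM. Depth is unknown, so no counting interval is given.

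The authors called genes with DESeq2, which was not used here because it needs counts, and limma (3.58.1 in R 4.3.3; lmFit, eBayes with a trend) was applied to log2(TPM + 1). Genes reaching 1 TPM in 2 or more libraries entered (16937), with Benjamini-Hochberg adjustment over all of them. Fold changes on this scale understate changes of low genes. The fit shares variance among genes, so an SE or p does not rest on the spread of its own gene alone. Calls needed an adjusted p under 0.05 together with the study's fold limit of 0.5 on the log2 scale. Identifiers were matched to GENCODE version 44 symbols (17290 of 18885). Ratios were compared by exact permutation of libraries (scipy 1.17.1). The fit was tested on simulated data. The members and lists were chosen with earlier results of these data known. Named genes are all members, ANP32B, the up to 3 called genes with the highest and lowest change in each list, 8 genes named whatever their values (HFE, TFR2, STEAP3, BACH1, NFE2L2, FBXL5, MYC and PCBP1), overlapping genes and pseudogenes; some genes under this rule are not reported here. Markers and genes with a stem-loop were named beside these. Alternatives were another pseudocount, filter, scaling, fold limit and p, a replicate block, and each library left out.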

Additional observations from a re-analysis of the deposited data

How the results depend on the processing

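The same 6 iron genes were called higher in all 11 refits. Over all alternatives, 121 of 128 values of the 9 genes kept their direction and their status as called or not called. The alternatives that changed only the fold limit or the p reused the main fold changes, so direction could not change there. With a fold limit of 1, only HMOX1 of the iron genes remained called (1 gene), and 1136 genes were called higher and 273 lower overall. Without a fold limit, TFRC was added and 3342 genes were called lower. IREB2 reversed to a log2 fold change of -0.00053 under median-of-ratios scaling (limma adjusted p = 0.996). Leaving out a library in turn gave 6 called iron genes each time. Quantile normalization moved the median of all genes from 0.079 to -0.04 and the share of calls that were lower from 36.2% to 50.3%. The members' median was then 0.756, so it stood farther above that of all genes. The labels number the replicates, and the deviations of same-numbered libraries had a correlation of -0.0232. No pairing by number was visible in this value, but it cannot show whether same-numbered libraries were prepared together. With the replicate block, 2853 genes were called higher and 1671 lower, with the same 6 iron genes. Precision is limited by 2 libraries per group and by an unknown depth. For single genes, the alternatives are given for the 9 iron genes only. Other called genes lay just past the fold limit of 0.5, among them PCBP2 (-0.51), PPOX (0.52), SLC7A11 (0.51) and the marker SPI1 (0.51). Whether their calls hold in the refits is not reported here.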
